A study of Mus musculus with 9 samples.

Results

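The 10 cathepsin genes described here (Ctsa, Ctsb, Ctsc, Ctsd, Ctse, Ctsh, Ctsk, Ctsl, Ctss and Ctsz) are proteases of lysosomes and endosomes, measured on single-colour arrays in mouse tumour macrophages and peritoneal exudate cells. They were chosen by gene name, with their levels on these same arrays already known, and 12 probes of 59305 non-control spots carry those names. Of the 10 genes, 9 gave a usable signal and are among the 16462 genes compared; Ctse did not pass the filter on dim probes. Because the choice was made with the values in view, the levels and differences of the 10 genes are a description, given with standard errors and without p-values. Each level is the log2 of the background-subtracted intensity minus the array's 75th percentile, and each difference is a difference of group means of such levels.

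The arrays form 3 groups of 3 samples, all from mice of strain C57BL/6J. PECs are the peritoneal exudate cells that serve as controls. F4/80high TAMs and F4/80low TAMs are the tumor-associated macrophages of a fibrosarcoma, split by the amount of a surface protein. The protein that splits them is a surface marker of mouse macrophages encoded by Adgre1. The labels give no age or sex, name no tumour line, and state no further sort marker. Tumour origin and tissue of origin cannot be told apart in a comparison of TAMs with PECs. The replicates are called biological, but whether 1 animal stands behind each is not said; p-values here measure the spread between samples, and part of that may be technical. RNA came from bulk cells, where fewer cells of a type and less RNA per cell cannot be told apart.

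Cathepsins are made as inactive precursors, carried to the lysosome largely through mannose 6-phosphate receptors, and activated there by cleavage at acid pH. Ctsb, Ctsc, Ctsh, Ctsk, Ctsl, Ctss and Ctsz are cysteine proteases, Ctsd and Ctse are aspartic proteases, and Ctsa is a serine carboxypeptidase. In macrophages they degrade engulfed protein, trim antigens and the invariant chain for class II presentation, and, when secreted, act on extracellular matrix. Cystatins and stefins bind and inhibit the cysteine cathepsins.

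The 250 bases before the transcription start are shown for 4 genes: Ctsd and Ctsl, which were low in both TAM subsets, and Ctsc and Ctsk, whose levels ran in opposite ways between the subsets. The sequences come from RefSeq (build GRCm38.p6), run 5′ to 3′ along the gene's strand, and have matches to 2 motifs in capitals: CACGTG, the core of the element that TFEB binds at lysosomal genes, in Ctsd and Ctsl, and GAGGAA, read on either strand (TTCCTC on the other), a core of PU.1 sites in myeloid cells, in Ctsc and Ctsk.
Ctsd, chr7:142387828-142388077, minus strand: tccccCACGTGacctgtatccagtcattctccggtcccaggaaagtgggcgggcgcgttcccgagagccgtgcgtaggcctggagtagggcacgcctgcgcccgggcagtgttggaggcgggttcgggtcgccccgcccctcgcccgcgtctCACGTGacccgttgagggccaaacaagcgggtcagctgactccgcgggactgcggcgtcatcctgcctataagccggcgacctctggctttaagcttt
Ctsl, chr13:64370521-64370770, minus strand: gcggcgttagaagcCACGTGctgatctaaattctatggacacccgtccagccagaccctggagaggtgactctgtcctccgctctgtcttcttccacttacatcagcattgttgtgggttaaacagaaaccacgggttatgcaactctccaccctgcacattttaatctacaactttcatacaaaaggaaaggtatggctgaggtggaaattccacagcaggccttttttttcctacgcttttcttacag
Ctsc, chr7:88277835-88278084, plus strand: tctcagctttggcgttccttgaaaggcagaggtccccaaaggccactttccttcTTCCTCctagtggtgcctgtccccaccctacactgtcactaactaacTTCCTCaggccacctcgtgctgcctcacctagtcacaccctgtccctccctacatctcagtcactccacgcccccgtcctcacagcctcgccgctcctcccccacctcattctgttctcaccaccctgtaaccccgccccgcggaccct
Ctsk, chr3:95498960-95499209, plus strand: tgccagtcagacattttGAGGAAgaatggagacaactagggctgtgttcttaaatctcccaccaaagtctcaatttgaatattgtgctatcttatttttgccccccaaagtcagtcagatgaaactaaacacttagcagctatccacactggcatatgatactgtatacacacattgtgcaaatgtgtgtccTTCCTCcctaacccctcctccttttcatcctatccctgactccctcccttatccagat

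A window was found for 7 of the 10 genes, and Ctsa has 2 of them, which makes 8 windows. CACGTG, which reads the same on both strands, was in 3 of the 8 and in 6.02% of all 32851 windows of the table. It lay 245 to 240 and 98 to 93 bases before the start of Ctsd, 236 to 231 bases before that of Ctsl, and 12 to 7 bases before the second start of Ctsa. GAGGAA was in 3 of the 8 windows, those of Ctsc, Ctsk and Ctss, and in 23.3% of all. A pair of GAAA repeats with any 2 bases between them, a motif of interferon regulatory factors, was searched on both strands as well and was in the Ctss window alone, 21 to 12 bases before the start, and in 2.98% of all windows. A match describes letters in the window and is not a measured binding site.

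Adgre1 followed the labels of the TAM subsets, at 5.94 ± 0.26 in F4/80high TAMs, 2.89 ± 0.50 in F4/80low TAMs and 5.88 ± 0.25 in PECs (SD, n = 3 each). Of 8 macrophage markers, 8 were well above background on all F4/80high arrays, 7 on all F4/80low arrays and 8 on all PEC arrays, with Mertk, a receptor for engulfing dead cells, on none of the F4/80low arrays. Between the subsets, 5 of the 8 macrophage markers were higher and none lower in F4/80high TAMs (median 1.93), where 18.6% of all genes were higher. Against PECs, 1 rose and 4 fell in F4/80low TAMs (median -1.06), where 22.7% of all genes rose and 29.2% fell. In F4/80high TAMs 2 rose and 1 fell (median -0.11), where 25.0% of all genes rose and 28.0% fell. Summed over each list, neutrophil markers and T cell and NK cell markers were highest in the F4/80low samples. Of 9 neutrophil markers 8 were lower in F4/80high than in F4/80low TAMs, with Csf3r at 7.79 and 7.78. So were 6 of the 7 T cell and NK cell markers compared, where 14.0% of all genes were lower. The log2 of the summed levels of 9 neutrophil markers was 7.80 to 8.36 in F4/80high TAMs, 10.87 to 12.91 in F4/80low TAMs and 6.89 to 7.27 in PECs. For 9 T cell and NK cell markers it was 1.16 to 1.53, 4.13 to 5.37 and 0.96 to 2.08 in the same order of groups, and Ncr1 was above background in no group. For 9 dendritic cell markers it was 5.16 to 5.48, 5.08 to 6.34 and 1.5 to 1.89, and Xcr1, Cd209a and Itgae were above background in no group. Of 5 B cell, 4 mesothelium and 7 mast cell and eosinophil markers, at most 1 of a list was above background on all arrays of a group. The part of these cells in the differences below was not tested. The share of spots well above background was 36.1% to 38.3% per array, none was saturated, and the number of arrays limits the precision. One slide held all 6 TAM arrays and PEC replicate 1, and another held PEC replicates 2 and 3.

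**Figure D1:**
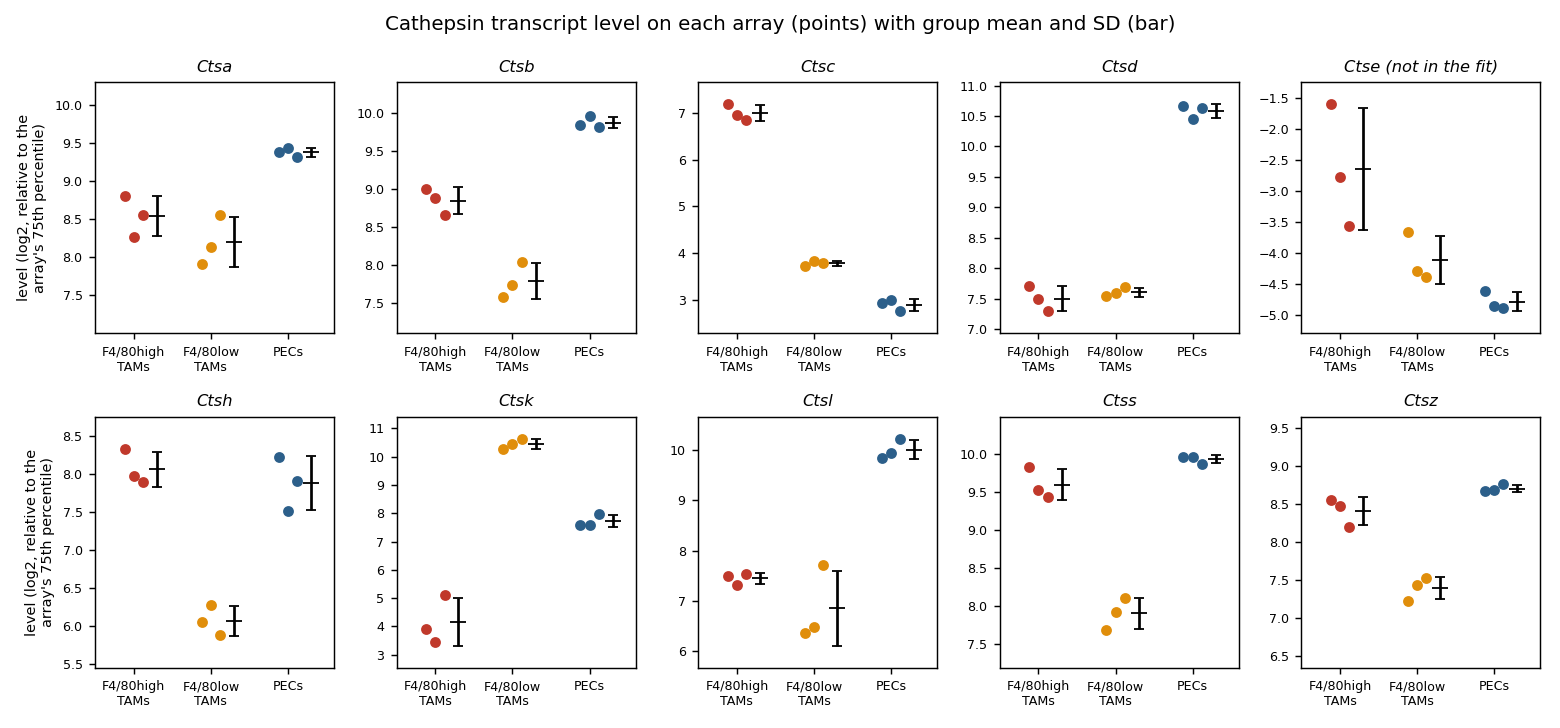
Level of the 10 cathepsins on each of the 9 arrays (vertical axis, log2 relative to the array's 75th percentile), with a panel and an axis range for each gene and F4/80high TAMs, F4/80low TAMs and PECs from left to right. Points are arrays, and bars are group means with SD; Ctsc is highest in F4/80high TAMs, Ctsk is highest in F4/80low TAMs, and Ctsd is highest in PECs.

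Against PECs, F4/80high TAMs had lower Ctsd, Ctsl, Ctsk, Ctsb and Ctsa and higher Ctsc, while Ctsh, Ctss and Ctsz stayed within 0.33 log2 units of PECs. That makes 6 of 9 genes past the threshold (limma, Benjamini-Hochberg adjusted p under 0.05 over all genes), 1 higher and 5 lower, where 53.1% of all genes passed it, 25.0% higher and 28.0% lower. The median difference of the 9 was -0.84, beside 0.00 over all genes. The 3 arrays of each group did not overlap for 8 of the 9, against 65.2% of all genes.

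Against PECs, F4/80low TAMs had lower levels of 7 of the 9 genes and higher levels of Ctsk and Ctsc. All 9 passed the threshold and none overlapped; 51.9% of all genes passed it, 22.7% higher and 29.2% lower, and 59.3% did not overlap. The median difference was -1.81, beside -0.09 over all genes. Between the subsets, F4/80high TAMs exceeded F4/80low TAMs for Ctsc, Ctsh, Ctss, Ctsb and Ctsz and were below them for Ctsk, which makes 5 higher and 1 lower past the threshold; 32.6% of all genes passed it, 18.6% higher and 14.0% lower. The same 6 genes did not overlap, against 46.7% of all genes, and the median difference was 1.01, beside 0.08 over all genes. These 3 comparisons share samples, so their values stand side by side and are not independent.

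**Figure D2:**
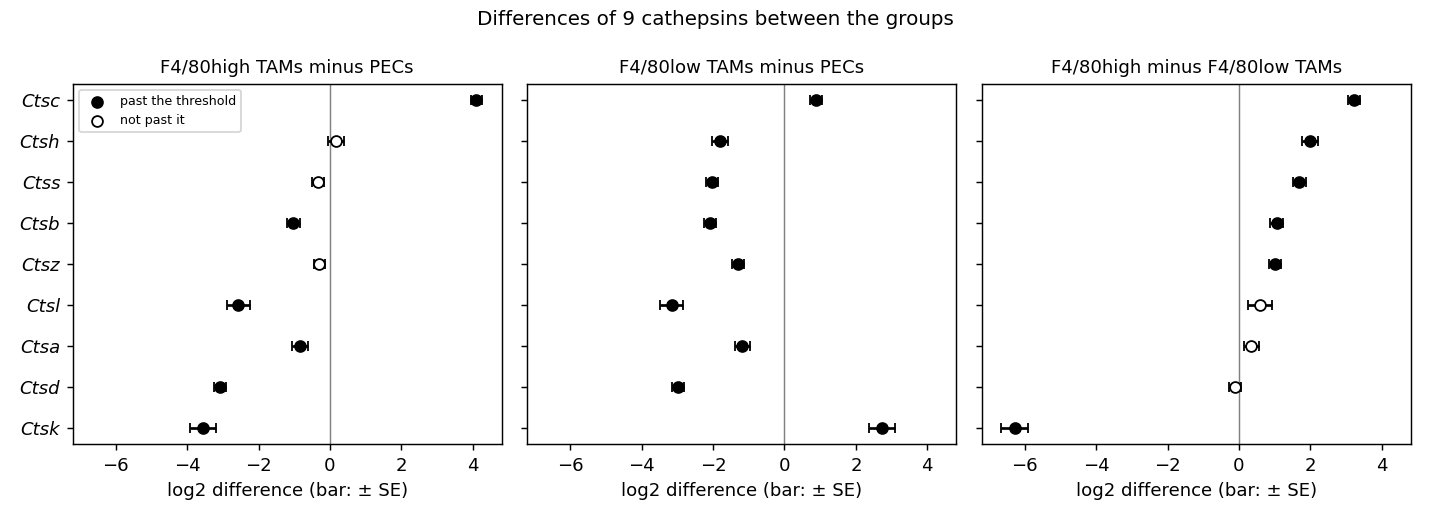
Difference in group means for the 9 compared cathepsins (horizontal axis, log2), with F4/80high TAMs minus PECs, F4/80low TAMs minus PECs and F4/80high minus F4/80low TAMs in the panels from left to right. Points are filled past the threshold and open otherwise, and bars are standard errors of the fit over 9 arrays; Ctsd and Ctsl lie left of 0 in both comparisons with PECs, and Ctsk lies on opposite sides of 0 in them.

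Ctsd and Ctsl had the largest reductions that both TAM subsets shared. Ctsd, the main aspartic endopeptidase of lysosomes (probe at mm9 chr7:149561962-149562021, minus strand), had levels of 7.70, 7.50 and 7.29 in F4/80high TAMs, 7.54, 7.59 and 7.69 in the F4/80low TAMs, and 10.66, 10.44 and 10.63 in PECs. Every TAM array was about 3 log2 units below every PEC array, and the subsets overlapped. The difference was -3.08 in F4/80high TAMs and -2.97 in the F4/80low TAMs against PECs (SE 0.16 each), which is 8.45-fold and 7.85-fold lower. Between F4/80high and F4/80low TAMs it was -0.11, and 0.21 when arrays were centred on their median. A second Ctsd probe, whose coordinates span 1659 bases (chr7:149566847-149568505), had differences against PECs of -3.46 in F4/80high TAMs and -3.82 in the F4/80low TAMs (SE 0.31 each). Both probes thus placed both subsets below PECs, while F4/80high minus F4/80low TAMs was 0.37 on the second probe.

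Ctsl, a cysteine endopeptidase that cuts the invariant chain in thymus epithelium and degrades protein broadly in lysosomes (chr13:64465287-64465346, minus strand), read 7.49, 7.31 and 7.53 in F4/80high TAMs, 6.35, 6.48 and 7.71 in the F4/80low TAMs, and 9.85, 9.95 and 10.22 in PECs. The TAM arrays all lay below the PEC arrays, by -2.56 in F4/80high TAMs and -3.16 in the F4/80low TAMs (SE 0.33 each), or 5.91-fold and 8.92-fold. Within the F4/80low samples, replicate 3 stood over 1 log2 unit above the other two and above every F4/80high array. The difference between F4/80high and F4/80low TAMs was 0.59 (SE 0.33) with it, and did not pass the threshold; without it the difference was 1.03 (SE 0.19) and passed.

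Ctsb, Ctss, Ctsh and Ctsz shared an order in which F4/80low TAMs were lowest, and they differed in how far F4/80high TAMs lay from PECs. Ctsb, an endopeptidase that also trims dipeptides from the carboxy terminus (chr14:63761906-63761965, plus strand), had levels of 9.0, 8.89 and 8.66 in F4/80high TAMs, 7.58, 7.75 and 8.05 in the F4/80low TAMs, and 9.84, 9.96 and 9.83 in PECs. Its 3 groups were fully separated and evenly spaced: F4/80high TAMs were 2.04-fold below PECs (difference -1.03), F4/80low TAMs were 4.25-fold below PECs (-2.09), and the subsets differed by 1.06 (SE 0.18 each).

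Ctss, the endopeptidase that completes invariant-chain removal in macrophages and dendritic cells (chr3:95360245-95360304, plus strand), had levels of 9.83, 9.53 and 9.43 in F4/80high TAMs, 7.69, 7.92 and 8.10 in the F4/80low TAMs, and 9.96, 9.97 and 9.87 in PECs. F4/80high TAMs stood close below PECs (-0.33, SE 0.18), a difference that missed the threshold here and passed it at -0.41 with another background correction and at -0.56 with quantile normalization. F4/80low TAMs were 4.08-fold below PECs (-2.03), and F4/80high TAMs were 3.23-fold above F4/80low TAMs (1.69).

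Ctsh, an aminopeptidase (chr9:89970828-89970887, plus strand), had levels of 8.33, 7.97 and 7.89 in F4/80high TAMs, 6.05, 6.28 and 5.89 in the F4/80low TAMs, and 8.23, 7.51 and 7.91 in PECs. F4/80high TAMs overlapped PECs, with a difference of 0.18 (SE 0.22) that was -0.17 within the slide that holds a PEC array beside the TAM arrays. F4/80low TAMs were below both, by -1.81 against PECs, and F4/80high TAMs exceeded F4/80low TAMs 3.98-fold (1.99).

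Ctsz, a carboxypeptidase that removes single residues (chr2:174253228-174253287, minus strand), had levels of 8.55, 8.47 and 8.20 in F4/80high TAMs, 7.22, 7.43 and 7.52 in the F4/80low TAMs, and 8.66, 8.68 and 8.76 in PECs. Its arrays separated in the same order as those of Ctss, with smaller gaps between the F4/80low arrays and those of the other groups. The difference was -0.29 (SE 0.16) in F4/80high TAMs against PECs, below the threshold here and past it at -0.48, -0.54 and -0.47 with another background correction, quantile normalization and the deposited value table. In F4/80low TAMs it was -1.31 against PECs, and F4/80high TAMs exceeded F4/80low TAMs by 1.01.

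Ctsa, the serine carboxypeptidase that also shields beta-galactosidase and neuraminidase 1 in the lysosome (chr2:164665023-164665082, plus strand), had levels of 8.81, 8.27 and 8.55 in F4/80high TAMs, 7.91, 8.13 and 8.56 in the F4/80low TAMs, and 9.39, 9.43 and 9.32 in PECs. Both subsets lay below PECs and overlapped each other. The difference was -0.84 in F4/80high TAMs and -1.18 in the F4/80low TAMs against PECs (SE 0.21 each), and 0.34 between F4/80high and F4/80low TAMs. The F4/80high difference was -0.85 within 1 slide and did not pass the threshold there. A dim second probe (chr2:164666433-164666492) gave -1.60 and -1.71 in F4/80high and F4/80low TAMs against PECs (SE 0.35 each), and was above background on 2 of 3 F4/80low arrays.

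Ctsc, the dipeptidyl peptidase that activates the serine proteases of neutrophil, mast cell and cytotoxic lymphocyte granules, was the cathepsin with the highest level in F4/80high TAMs relative to PECs. Its probe (chr7:95458436-95458495, plus strand) read 7.19, 6.96 and 6.86 in F4/80high TAMs, 3.73, 3.84 and 3.78 in the F4/80low TAMs, and 2.95, 3.00 and 2.76 in PECs. The groups were tight and did not overlap, with SDs of 0.17, 0.06 and 0.13. F4/80high TAMs were 17.2-fold above PECs (4.10) and 9.31-fold above F4/80low TAMs (3.22, SE 0.16 each). F4/80low TAMs were 1.84-fold above PECs (0.88), a difference that was 0.41 and did not pass the threshold when arrays were centred on their median. That centring moved the median of all genes in this comparison by -0.47.

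Ctsk, the collagen-degrading protease best known from osteoclasts, had the widest range of the 9 genes. Its probe (chr3:95313165-95313224, plus strand) read 3.92, 3.46 and 5.11 in F4/80high TAMs, 10.27, 10.45 and 10.63 in the F4/80low TAMs, and 7.59, 7.60 and 7.98 in PECs. F4/80high TAMs were lowest, PECs intermediate and F4/80low TAMs highest, with no overlap. F4/80high TAMs were 11.8-fold below PECs (-3.56), F4/80low TAMs were 6.61-fold above them (2.73), and F4/80high TAMs were 78.0-fold below F4/80low TAMs (-6.28, SE 0.37 each). The F4/80high arrays spread more than the others, with an SD of 0.86 against 0.18 in F4/80low TAMs and 0.22 in PECs.

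**Figure D3:**
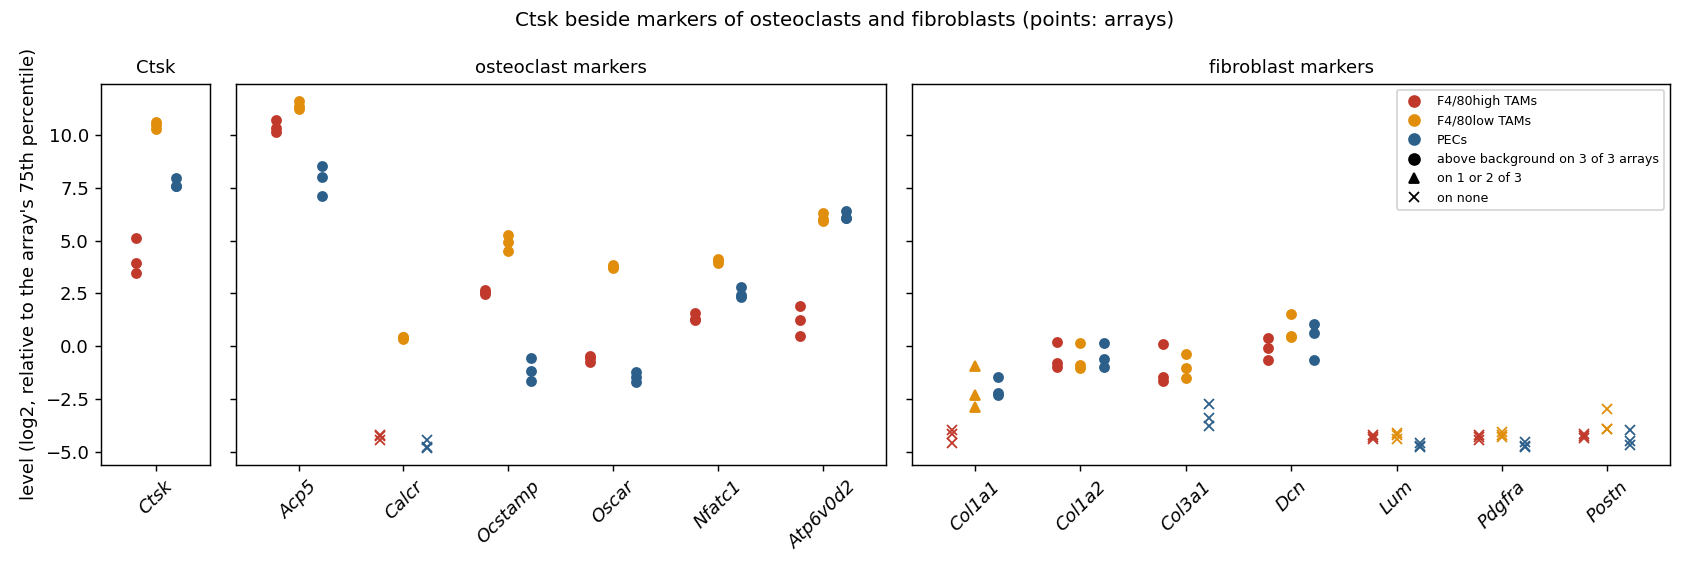
Level of Ctsk, of 6 osteoclast markers and of 7 fibroblast markers on each of the 9 arrays (log2 relative to the array's 75th percentile), with F4/80high TAMs, F4/80low TAMs and PECs from left to right within each gene. Points are arrays, with triangles and crosses where a gene was above background on only some or on none of a group's arrays; Ctsk has its highest arrays in F4/80low TAMs, as do Acp5, Calcr, Ocstamp, Oscar and Nfatc1, while Lum, Pdgfra and Postn are crosses in every group.

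Markers of osteoclasts were examined beside Ctsk. In F4/80low TAMs 5 of 6 rose against PECs and none fell, where 22.7% of all genes rose and 29.2% fell. The median of the 6 was 4.28 (3.23 with genes below background at their bound), where the median of all genes was -0.09. The log2 of their summed levels was 10.16 to 10.73 in F4/80high TAMs, 11.29 to 11.67 in F4/80low TAMs and 7.86 to 8.78 in PECs. Oscar, an immune receptor of osteoclast precursors, read -0.44, -0.54 and -0.73 in F4/80high TAMs, 3.75, 3.84 and 3.73 in the F4/80low TAMs, and -1.69, -1.23 and -1.46 in PECs. It rose by 5.24 in F4/80low TAMs. Ocstamp, a fusion protein of osteoclasts, rose by 6.03 in F4/80low TAMs and by 3.70 in F4/80high TAMs. Calcr, the calcitonin receptor, was above background only on the 3 F4/80low arrays, at least 7.78-fold higher than in PECs (adjusted p = 1.97e-07). Acp5, the tartrate-resistant acid phosphatase, rose by 3.51 in F4/80low TAMs (adjusted p = 3.97e-05) and by 2.51 in F4/80high TAMs. Atp6v0d2, a proton-pump subunit, was -4.97 in F4/80high TAMs against PECs and -0.10 in F4/80low TAMs. In F4/80high TAMs 3 of the 6 rose and 2 fell against PECs, and all 6 were lower than in F4/80low TAMs. Of all genes 25.0% rose and 28.0% fell in F4/80high TAMs against PECs, and 14.0% were lower than in F4/80low TAMs.

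Fibroblasts also make Ctsk. Of 7 fibroblast markers 3 were above background on all arrays of F4/80high TAMs, 3 on those of F4/80low TAMs and 3 on those of PECs, not the same 3 throughout, while Lum, Pdgfra and Postn were above background on none. The log2 of the summed levels was 1.05 to 1.63 in F4/80high TAMs, 1.42 to 2.37 in F4/80low TAMs and 1.24 to 1.57 in PECs. The part of fibroblast RNA in the level of Ctsk was not tested.

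Ctse, the aspartic protease of endosomes in some immune and epithelial cells (chr1:133571990-133572049, plus strand), read -1.60, -2.77 and -3.56 in F4/80high TAMs, -3.67, -4.29 and -4.39 in the F4/80low TAMs, and -4.61, -4.86 and -4.88 in PECs. It was well above background on 1 of 9 arrays, an F4/80high one, so no fold is given and it entered no count.

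The likeness of the 9 genes' profiles over the arrays was measured as the root mean square difference between profiles centred on their own mean. Ctsh and Ctss (0.32), Ctsb and Ctss (0.32), Ctss and Ctsz (0.34) and Ctsa and Ctsz (0.34) were closest. Ctsd and Ctsl lay 0.46 apart. Ctsc was 1.65 from its nearest, Ctsh, and Ctsk was 2.75 from its nearest, Ctsa. Ctsc and Ctsk were farthest apart, at 4.14.

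**Figure D4:**
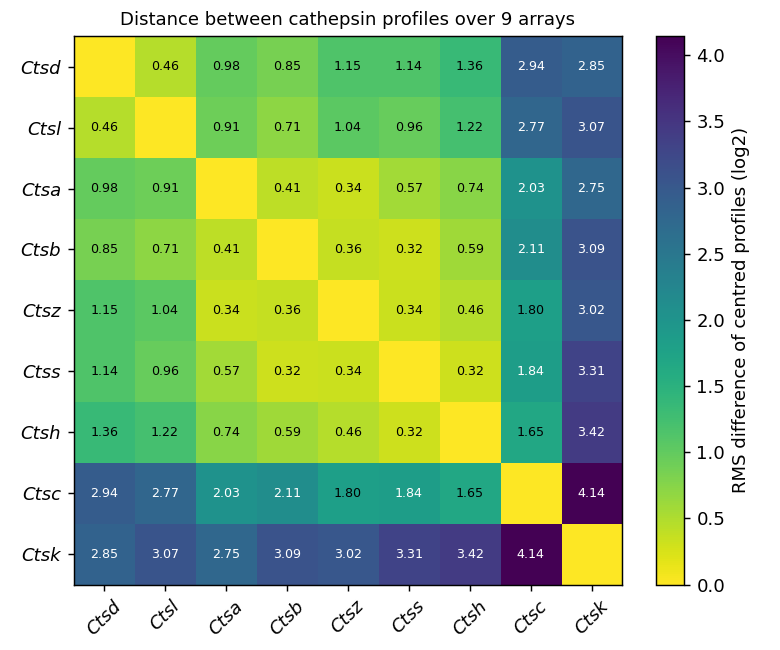
Root mean square difference (log2) between the centred profiles of each pair of the 9 compared cathepsins over 9 arrays, with the same genes on both axes. Dark cells are large distances; the rows of Ctsc and Ctsk are the darkest, with smallest values of 1.65 and 2.75, and the cell they share reads 4.14.

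The same distance over the 9 arrays was taken to the other compared genes. Cathepsins, genes known only by a chromosome range and genes without a value on every array were left out. Nearest to Ctsd were Cd84 (0.13) and Dapk1 (0.18), and nearest to Ctsl were Pdp1 (0.28) and Sgk1 (0.32). Nearest to Ctsb were Lclat1 (0.15) and Tm2d3 (0.17), to Ctss Zfp90 and Ids (0.21 each), to Ctsh Dpysl2 (0.25) and Igsf8 (0.26), to Ctsz Arap1 and Dnajc12 (0.10 each), and to Ctsa Zfp664 (0.12) and Aggf1 (0.15). Ctsc was nearest to Bco2 (0.26) and Astl (0.30). Ctsk had none of these genes closer than Tfrc (0.64), the transferrin receptor, followed by Siglec15 (0.72), a receptor on osteoclasts. The points share arrays and scaling, so these distances are descriptive.

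Of 13 further cathepsin genes 3 could be compared. Ctsf, a cysteine protease that can process the invariant chain in macrophages, read -0.22, -0.84 and -0.60 in F4/80high TAMs, 0.96, 0.99 and 1.02 in the F4/80low TAMs, and -1.24, -1.54 and -1.51 in PECs. Like Ctsk, it had its highest arrays in F4/80low TAMs; it rose by 2.42 there (SE 0.19, adjusted p = 1.54e-05) and by 0.88 in F4/80high TAMs (adjusted p = 0.00413), the second of which was 0.69 and missed the threshold with the slide as a block. Under normexp background correction the differences were 1.21 in F4/80low TAMs and 0.39 in F4/80high TAMs, and in the deposited value table they were 1.36 and 0.29. Ctsw, a cathepsin of NK cells and cytotoxic T cells, was above background on all F4/80low arrays and no PEC array. It was at least 13.7-fold higher in F4/80low TAMs than in PECs (adjusted p = 4.92e-05). Its differences were 1.88 under normexp and 2.05 in the deposited value table, which are folds under that minimum. Ctsg, a serine protease of neutrophil granules that is no relative of the cysteine cathepsins, read -3.75, -3.41 and -4.29 in F4/80high TAMs, 5.15, -1.46 and -4.22 in the F4/80low TAMs, and -4.43, -3.02 and -4.22 in PECs. One F4/80low array thus carried most of its signal, and it was not compared. Ctso was above background on all F4/80high and PEC arrays and on 1 of the 3 F4/80low arrays. Its F4/80high minus F4/80low difference was 1.13 (adjusted p = 0.0783), which passed the threshold in 7 of 20 alternatives. With the replicate number as a block the adjusted p was 0.0993 on all 9 arrays and 0.0356 on the TAM arrays alone. The other 9 were above background on no array.

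Class II presentation partners, the molecules whose loading Ctss and Ctsl serve, were mostly higher in F4/80high TAMs. Of 8 genes 6 rose and none fell in F4/80high TAMs against PECs (median 2.89), where 25.0% of all genes rose and 28.0% fell. In F4/80low TAMs 5 rose and none fell (median 0.89), where 22.7% of all genes rose and 29.2% fell. Between the subsets, 6 were higher and none lower in F4/80high TAMs (median 2.01), where 18.6% of all genes were higher and 14.0% lower. The medians of all genes were 0.00, -0.09 and 0.08 in that order. Cd74, the invariant chain itself, read 9.39, 9.34 and 9.0 in F4/80high TAMs, 6.51, 7.55 and 6.93 in the F4/80low TAMs, and 5.90, 6.09 and 7.16 in PECs. It rose by 2.86 in F4/80high TAMs relative to PECs (SE 0.36, adjusted p = 0.00018) and was 2.25 above F4/80low TAMs (adjusted p = 0.00158). In F4/80low TAMs it differed from PECs by 0.61 (adjusted p = 0.185), and by 1.00 without PEC replicate 3 (adjusted p = 0.0323). Among the class II chains, H2-Eb1 rose by 4.39 and 2.37, H2-Aa by 3.91 and 1.63 and H2-Ab1 by 3.64 and 2.02 in F4/80high and F4/80low TAMs. H2-DMa, a chain of the molecule that loads peptide, rose by 2.92 in F4/80high TAMs and differed from PECs by -0.05 in F4/80low TAMs (adjusted p = 0.905). Ctss, with values given above, was not higher than in PECs in either subset. Between the subsets it was higher in F4/80high TAMs, by 1.69.

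Genes that process and deliver lysosomal enzymes were mostly lower in TAMs. Of 17 genes 2 rose and 11 fell in F4/80high TAMs against PECs (median -0.81), where 25.0% of all genes rose and 28.0% fell. In F4/80low TAMs none rose and 13 fell (median -1.39), where 22.7% of all genes rose and 29.2% fell. Between the subsets, 8 were higher and 4 lower in F4/80high TAMs (median 0.55), where 18.6% of all genes were higher and 14.0% lower. The medians of all genes were 0.00, -0.09 and 0.08 in that order. Lgmn, the asparaginyl endopeptidase that trims several cathepsin precursors, read 9.12, 8.61 and 8.49 in F4/80high TAMs, 6.13, 6.48 and 6.48 in the F4/80low TAMs, and 8.70, 8.47 and 8.68 in PECs. Its pattern of F4/80high TAMs near PECs with F4/80low TAMs below both was that of Ctsh: 0.12 in F4/80high TAMs (adjusted p = 0.639) and -2.25 in the F4/80low TAMs (adjusted p = 3.64e-05) against PECs, and 2.37 between F4/80high and F4/80low TAMs (adjusted p = 7.55e-05).

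The carriers of the precursors moved in both directions. Igf2r, the cation-independent mannose 6-phosphate receptor, fell by 3.80 in F4/80high TAMs (adjusted p = 2.25e-06) and by 2.47 in the F4/80low TAMs (adjusted p = 3.33e-05). M6pr, the cation-dependent receptor, rose by 0.98 in F4/80high TAMs (adjusted p = 0.000738) and differed by 0.29 in F4/80low TAMs (adjusted p = 0.154). Sort1, the sorting receptor sortilin, was below background on every F4/80high array, at least 19.6-fold lower than in PECs (adjusted p = 0.000589). Its differences were -2.62 under normexp and -2.77 in the deposited value table, which are folds under that minimum. It fell by 3.78 in F4/80low TAMs (adjusted p = 0.0113), and the call was lost with the slide as a block (adjusted p = 0.0627). The F4/80low arrays read 0.65, -1.41 and -4.38, and 2 of them were above background. That F4/80low difference was -1.93 under normexp, -2.01 in the deposited value table and -2.45 without F4/80low replicate 3. Psap, the prosaposin carried to lysosomes with Ctsd, fell by 2.20 in F4/80high TAMs and by 2.81 in the F4/80low TAMs against PECs (adjusted p = 0.000103 and 3.38e-05). Lamp1, a lysosomal membrane protein, fell by 0.94 and 2.57 in the same comparisons (adjusted p = 0.000625 and 2.81e-06). M6pr was named after its values were seen, as were the enzymes that Ctsa shields: Glb1, the beta-galactosidase, fell by 1.47 in F4/80high TAMs (adjusted p = 7.66e-05) and differed by 0.37 in F4/80low TAMs (adjusted p = 0.0854), and Neu1, the neuraminidase, fell by 1.21 and 1.33 (adjusted p = 0.00394 and 0.00271). Tfeb, the regulator of lysosomal genes whose motif core was counted above, fell by 4.16 in F4/80high TAMs (adjusted p = 0.000162, with -1.84 under normexp). In the F4/80low TAMs it fell by 1.94 (adjusted p = 0.0123, and 0.0747 with the slide as a block). The F4/80high arrays of Tfeb read -3.83, -1.49 and -1.80, and 2 of them were above background. A link between Tfeb and the levels of the cathepsins was not tested.

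**Figure D5:**
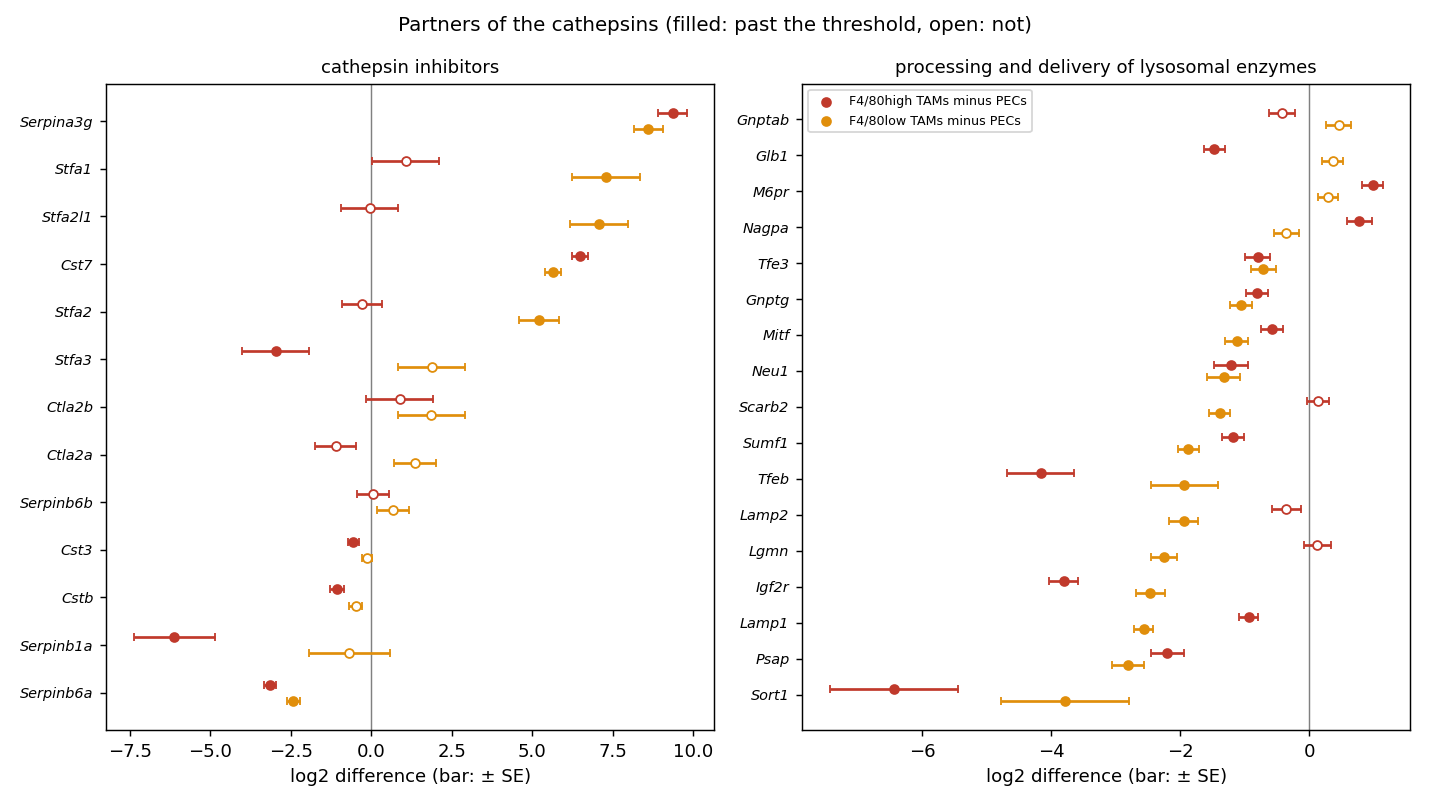
Differences (horizontal axis, log2) of the 13 compared cathepsin inhibitors (left) and of the 17 genes that process or deliver lysosomal enzymes (right), for F4/80high TAMs minus PECs (red) and F4/80low TAMs minus PECs (orange). Points are genes, filled past the threshold and open otherwise, and bars are standard errors; for genes below background in 1 group the point is the fitted value and not the bound. Most genes of the right panel lie left of 0, and in the left panel Serpina3g and Cst7 lie right of 0 for both subsets.

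Of 16 cathepsin inhibitors listed 13 could be compared. In F4/80high TAMs 2 rose and 5 fell against PECs (median -0.27), where 25.0% of all genes rose and 28.0% fell. In F4/80low TAMs 5 rose and 1 fell (median 1.87), where 22.7% of all genes rose and 29.2% fell. Between the subsets, 1 was higher and 7 lower in F4/80high TAMs (median -0.98), where 18.6% of all genes were higher and 14.0% lower. Those that rose in F4/80low TAMs against PECs were Cst7, Serpina3g, Stfa1, Stfa2 and Stfa2l1. Stfa1, Stfa2, Stfa3 and Stfa2l1 were among the 7. The Stfa genes are close copies whose probes may share signal, so they may not be separate observations in these counts and medians. Cst7, cystatin F, an inhibitor of Ctsc inside cells, read 3.61, 4.19 and 3.92 in F4/80high TAMs, 3.34, 3.16 and 2.73 in the F4/80low TAMs, and was below background on all PEC arrays. It was at least 84.6-fold higher in F4/80high TAMs (adjusted p = 2.03e-07) and at least 47.6-fold higher in the F4/80low TAMs (adjusted p = 6.22e-07) than in PECs. It was higher in F4/80high than in F4/80low TAMs by 0.83 (adjusted p = 0.0276), a call lost in 8 of 21 alternatives: quantile normalization (adjusted p = 0.0714), the percentile over detected probes (0.128), no filter on dim probes (0.0657), a replicate block on the TAM arrays alone (0.0591, with 0.0306 on all 9 arrays), and without replicate 2 or 3 of either subset (0.0521 to 0.104). Against PECs, normexp gave Cst7 differences of 3.86 and 3.00 in F4/80high and F4/80low TAMs and the deposited value table gave 3.96 and 3.36, which are folds under those minimums. Serpina3g, a serpin that inhibits cysteine and serine proteases, was at least 212-fold higher in F4/80high TAMs (adjusted p = 6.57e-07) and at least 126-fold higher in the F4/80low TAMs (adjusted p = 1.49e-06). Normexp gave differences of 5.41 and 4.57, and the deposited value table gave 5.49 and 4.97, which are folds under those minimums.

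Of the stefin A genes, cytosolic inhibitors that are abundant in neutrophils, Stfa1, Stfa2 and Stfa2l1 rose in F4/80low TAMs, the samples with the highest summed neutrophil markers. Stfa3 differed from PECs by 1.88 there (adjusted p = 0.158), and Csta1 was above background on no array. Stfa1 read -2.03, -4.40 and -4.33 in F4/80high TAMs, 5.34, 1.02 and 1.53 in the F4/80low TAMs, and -4.57, -4.53 and -4.88 in PECs, at least 36.4-fold higher in F4/80low TAMs than in PECs (adjusted p = 0.000474). Stfa2l1 rose by 7.08 (adjusted p = 0.000224) and Stfa2 by 5.22 (adjusted p = 0.000158) in F4/80low TAMs. Under normexp the F4/80low difference of Stfa1 was 3.18, a fold under its minimum, and that of Stfa2l1 was 4.53. These genes are close copies of each other, and their probes may share signal. Serpinb1a, an inhibitor of neutrophil granule proteases, fell by 6.12 in F4/80high TAMs relative to PECs (SE 1.26, adjusted p = 0.00302). With the slide as a block the difference was -4.33 (adjusted p = 0.0825), and under normexp it was -3.46. The PEC arrays ranged between 1.64 and 4.78. The F4/80high arrays read -3.37, -3.18 and -1.49, and only 1 of them was above background. Cst3 and Cstb, the abundant cystatin C and stefin B, moved less: Cst3 was -0.55 in F4/80high TAMs (adjusted p = 0.019, lost without any of F4/80high replicates 2 and 3 or PEC replicate 3, at 0.0627, 0.0654 and 0.0675, and with the slide as a block, at 0.0783) and Cstb fell by 1.06 (adjusted p = 0.00232, and 0.0637 within 1 slide) there.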

How the data were processed

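Total RNA labelled with Cy3 was measured on 9 single-colour Agilent arrays. The scanner files hold a linear spot intensity that the authors deposited after background subtraction by Agilent Feature Extraction 10.5.1.1, per the file headers. A value table deposited by the authors holds log2 values for 9703 probes, with column medians of 8.26 to 8.35; its normalization is not given in the sources used here, and it served as an alternative.

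The intensity was put on the log2 scale minus the 75th percentile of the array's non-control spots (53.5 to 97.3 intensity units). Spots flagged as outliers (103 to 307 per array) were left out. Probes were kept if any group had all 3 arrays well above background (21197 of 55681 probes), and the brightest stood for its gene (16462 genes, 1625 of them known by a chromosome range). The 3 contrasts were fitted to all 9 arrays with limma 3.58.1 in R 4.3.3 (lmFit, eBayes, Benjamini-Hochberg), with a threshold of 0.05; the code was tested on simulated data. A gene below background on every array of 1 group has "at least N-fold", its brighter mean over the higher of the lowest detected signal and its own. That minimum is for the main processing only. Symbols follow RefSeq accessions for 26413 probes; probe positions are those of the files (mm9), and exon annotation was not used here. Named genes are the 10 cathepsins, the 2 genes nearest to each that ranged over at least 1 log2 unit, up to 5 genes of each partner list with the largest change, and Adgre1, Ctsf, Ctso, Ctsw, Ctsg, Cst3, Cstb, Cst7, Lgmn and Cd74; osteoclast markers are named as a list. The members and lists were chosen with earlier results of these data known. Same-numbered TAM samples deviated together (correlations 0.233, 0.171 and 0.134, with at most 0.0226 for other numbers), so the replicate block was run; PEC numbers showed no such pairing (-0.0963 to 0.0911). Alternatives were other background corrections, scalings and filters, slide and replicate blocks, and each replicate left out.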

Additional observations from a re-analysis of the deposited data

Results flagged for a closer look

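Ctsk differed between the subsets in opposite directions against PECs: F4/80high minus F4/80low TAMs was -6.28 (SE 0.37), with every F4/80high array below and every F4/80low array above the PEC arrays. The gene was chosen with its levels known, so this is a description. Ctse, outside the comparisons because it was dim, reached a level of -1.60 on 1 F4/80high array, the single array of 9 on which it was well above background.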

How the results depend on the processing

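Over 27 cathepsin differences and 546 values under alternatives, 529 kept their sign and side of the threshold, 3 lost the call and 6 gained it; these 9 changes are those named for Ctsa, Ctsc, Ctsl, Ctss and Ctsz. The other 8 turned sign without a call on either side. They were Ctsh in F4/80high TAMs against PECs (-0.043 with normexp, -0.075 with quantile normalization, -0.12 in the deposited value table, -0.17 with the slide as a block and on 1 slide alone, and -0.0077 to 0.35 with 1 sample left out) and Ctsd between F4/80high and F4/80low TAMs (0.21 with median centring and 0.13 with all probes averaged). The count of cathepsins past the threshold, of 9 or of the 8 in the deposited value table, ranged over 5 to 8 in F4/80high TAMs against PECs, 8 to 9 in F4/80low TAMs against PECs and 5 to 7 between the subsets. Over all genes, F4/80high TAMs against PECs gave 8737 calls, 5631 with the slide as a block and 4894 on 1 slide alone. F4/80low TAMs against PECs gave 8542, with 4904, 4127 and, with no filter, 14388; fewer PEC samples (1 slide) and more probes (no filter) enter those fits. Leaving out 1 sample gave 7014 to 9006, 6604 to 8468 and, between the subsets, 3914 to 5508 against 5368. The replicate block gave 8586, 8349 and 5186 calls on all 9 arrays and 4875 on the TAM arrays alone. Neither changed the call of any of the 9 chosen cathepsins. On the TAM arrays alone the block changed the calls of Cst7 and Ctso between the subsets, and on all 9 arrays it changed neither.

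Other named differences that turned sign passed no threshold either. In F4/80high TAMs against PECs, Ctso was -0.74 with either slide setting. Stfa2l1 was 0.14 with normexp, 1.51 with either slide setting and -0.82 to 0.82 with 1 sample left out. Lgmn was -0.072 with normexp, -0.074 in the deposited value table, -0.11 with quantile normalization, -0.035 with median centring and -0.068 to 0.25 with 1 sample left out. Adgre1 was -0.085 with normexp, -0.13 with quantile normalization, -0.11 with median centring, -0.015 with all probes averaged, -0.059 in the deposited value table and -0.084 to 0.20 with 1 sample left out. Serpinb1a in F4/80low TAMs against PECs was 1.11 with either slide setting and -2.20 to 0.28 with 1 sample left out. H2-DMa there was 0.12 with quantile normalization, 0.19 with the percentile over detected probes, 0.092 in the deposited value table and -0.40 to 0.13 with 1 sample left out, and Cst3 was 0.12 with that percentile.

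Scaling moved the median of all genes: median centring by -0.16, -0.47 and 0.32 in the comparisons in that order, and the percentile over detected probes by 0.24 in F4/80low TAMs against PECs and -0.25 between the subsets, where quantile normalization moved it by -0.11. In F4/80low TAMs against PECs 43.8% of calls were higher, against 58.4% with the percentile over detected probes and 22.1% with median centring; between the subsets the shares were 57.1%, 36.7% and 75.9%. No called cathepsin difference turned. Differences of dim genes were smaller with normexp correction (offset 50) and in the deposited value table, such as Serpina3g in F4/80high TAMs (9.36, against 5.41 and 5.49) and Ctsw in F4/80low TAMs (4.61, against 1.88 and 2.05).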
